A study of Homo sapiens with 6 samples.

Results

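The circadian clock genes described here are 10 transcriptional repressors and output factors: the period genes PER1, PER2 and PER3, the cryptochromes CRY1 and CRY2, the nuclear receptors NR1D1 and NR1D2, the output factor DBP, and the repressors BHLHE40 and BHLHE41. They were taken by name, and all 10 were found among the 42902 Gene IDs of the count table. RNA was sequenced from PANC-1, an established human line of pancreatic ductal carcinoma, in 6 libraries. In 3 of them the cells carried a short hairpin RNA against RRM2, which the labels give as both genotype and treatment (shRRM2), and in the other 3 a control hairpin in cells labelled wild type (shNC). The comparison was made to look for genes that respond to the knockdown of RRM2, the small subunit of ribonucleotide reductase. Neither the number of hairpins or clones nor the origin of replicate libraries in separate cultures is given in the labels, and the p-values therefore reflect only library-to-library spread, possibly technical. The labels also give no time of harvest and no synchronisation of the cells.

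The cellular clock is a transcriptional feedback loop. CLOCK, or its relative NPAS2, pairs with BMAL1 and activates genes through E-box sequences, among them the period and cryptochrome genes, whose proteins then inhibit the activators. The receptors NR1D1 and NR1D2 repress genes with ROR elements, such as BMAL1, where the ROR receptors activate. DBP and its relatives TEF and HLF activate genes with D-box sequences, which the repressor NFIL3 also binds, and BHLHE40 and BHLHE41 compete for E-boxes.

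Among the 10 genes, PER2, CRY2 and BHLHE41 rose in shRRM2, PER3, DBP and BHLHE40 fell, and PER1, CRY1, NR1D1 and NR1D2 did not pass the threshold. PER3 fell to 53.6% and DBP to 56.2% of the shNC level, and BHLHE41 rose 2.02-fold from a low level. The other changes were smaller. Thus 6 of 10 passed, while 52.1% of the 15866 tested genes passed in the same comparison (26.0% higher and 26.1% lower), so that the share among these genes was near that of the transcriptome. Their median log2 fold change was 0.00, against −0.01 over all tested genes. All 10 passed the filter on low counts. The test was edgeR's quasi-likelihood test with Benjamini-Hochberg adjustment over all tested genes at a threshold of 0.05, and this holds for every adjusted p below unless another is named. Levels are given as CPM, counts scaled to library size, and each fold change is the log2 of shRRM2 over shNC. These are bulk samples, in which fewer cells with a transcript and less of it per cell cannot be told apart.

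**Figure D1:**
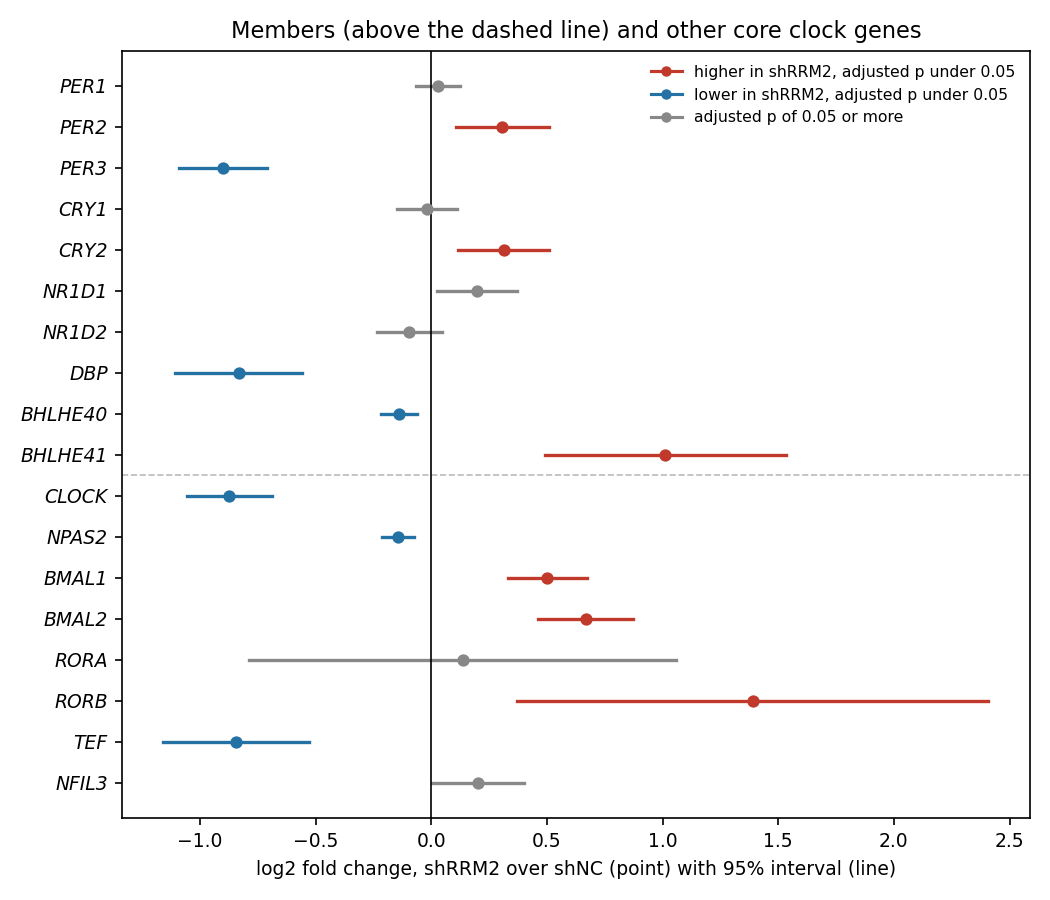
Log2 fold change of shRRM2 over shNC (horizontal axis) for the 10 clock genes, above the dashed line, and 8 other core clock genes below it. Points are estimates and lines are 95% intervals from 3 libraries per group. PER3, DBP, CLOCK and TEF lie between −0.90 and −0.83, and BHLHE41, BMAL1 and BMAL2 lie above 0.

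The promoter sequences below are shown because they hold letters of the elements that clock factors are known to bind, in genes that rose (PER2, BHLHE41 and BMAL1), fell (PER3) or did not pass (NR1D2). They come from RefSeq (GRCh38.p14), run from 250 bases before to 50 after an annotated start, and are written in the direction of transcription. RefSeq gave 13 such windows for the 10 genes. The only window of PER2 surrounds a start inside the gene, which runs from 238244044 to 238300065 on the minus strand. Its upstream end was therefore not searched. Capitals mark matches, on either strand, to the E-box CACGTG, its variant CACGTT (E-prime box), the D-box TTANGTAA, the cyclic AMP response element TGACGTCA (CRE) and the ROR element (RORE), ANNT followed directly by NGGTCA. The E-prime box was added to the search after the PER2 sequence was seen. The E-box and the E-prime box differ in their last base, and matches to the motifs may overlap in part.
PER3, first start, chr1:7784041-7784340, plus strand: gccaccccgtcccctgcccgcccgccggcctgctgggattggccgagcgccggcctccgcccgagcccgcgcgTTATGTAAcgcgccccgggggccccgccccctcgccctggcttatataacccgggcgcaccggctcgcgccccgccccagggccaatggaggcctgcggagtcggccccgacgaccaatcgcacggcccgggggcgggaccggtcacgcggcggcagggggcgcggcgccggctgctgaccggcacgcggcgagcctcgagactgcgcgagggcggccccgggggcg
PER2, chr2:238288561-238288860, minus strand: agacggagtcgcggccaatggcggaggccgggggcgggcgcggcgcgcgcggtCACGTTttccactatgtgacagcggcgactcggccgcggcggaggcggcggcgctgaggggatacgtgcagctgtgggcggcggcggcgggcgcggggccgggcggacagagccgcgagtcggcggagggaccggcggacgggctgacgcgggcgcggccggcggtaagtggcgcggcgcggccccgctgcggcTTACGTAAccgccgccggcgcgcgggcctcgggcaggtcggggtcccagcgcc
NR1D2, second start, chr3:23945871-23946170, plus strand: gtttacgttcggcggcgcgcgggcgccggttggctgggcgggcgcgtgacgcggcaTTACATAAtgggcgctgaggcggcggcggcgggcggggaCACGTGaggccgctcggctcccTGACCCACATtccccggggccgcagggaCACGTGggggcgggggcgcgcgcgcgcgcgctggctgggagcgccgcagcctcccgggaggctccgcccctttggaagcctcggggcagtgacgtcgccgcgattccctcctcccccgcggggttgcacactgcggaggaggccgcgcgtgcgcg
BHLHE41, chr12:26124988-26125287, minus strand: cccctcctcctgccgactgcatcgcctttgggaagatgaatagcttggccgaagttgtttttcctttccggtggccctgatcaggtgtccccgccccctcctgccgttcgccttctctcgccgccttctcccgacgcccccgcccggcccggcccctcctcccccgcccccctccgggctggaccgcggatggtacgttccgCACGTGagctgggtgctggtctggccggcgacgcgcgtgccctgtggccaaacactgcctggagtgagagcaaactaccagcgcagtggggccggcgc
BMAL1, first start, chr11:13277540-13277839, plus strand: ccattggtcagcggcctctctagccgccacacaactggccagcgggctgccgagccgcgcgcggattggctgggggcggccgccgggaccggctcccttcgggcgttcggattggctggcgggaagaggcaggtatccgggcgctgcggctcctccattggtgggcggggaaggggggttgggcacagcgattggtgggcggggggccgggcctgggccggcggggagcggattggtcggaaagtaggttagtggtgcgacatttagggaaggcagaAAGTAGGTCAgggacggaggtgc

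D-box letters stood in the windows of 3 genes. Their first base lay at position −177 from the start in PER3, at −3 in PER2 and at −194 from the second start of NR1D2. PER3 fell, PER2 rose and NR1D2 did not pass, so holders of the D-box letters did not share a direction. The letters occur in 2.18% of the 35116 RefSeq promoter windows of this length. The E-box stood in the windows of PER1, NR1D2, BHLHE40 and BHLHE41. Of these, BHLHE41 rose, BHLHE40 fell and PER1 and NR1D2 did not pass, and 7.26% of all windows hold an E-box. The E-prime box, found in 5.34% of all windows, stood in PER2, CRY1, NR1D1 and the second window of CRY2. Of these, PER2 and CRY2 rose, and CRY1 and NR1D1 did not pass. NR1D2 alone among the 10 held a ROR element (2.09% of all windows), and none held the CRE (1.85%). The first window of BMAL1, a known target of NR1D1 and NR1D2, held a ROR element at position 28 after its start, and its second window no match. The second window of CLOCK, which fell, held a ROR element at −217 and an E-prime box at −187. TEF, which also fell, held an E-box in both windows, at −195 and −193, and NPAS2 and BMAL2 had no match. DBP had no match in its window. A match describes letters and does not show binding.

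**Figure D2:**
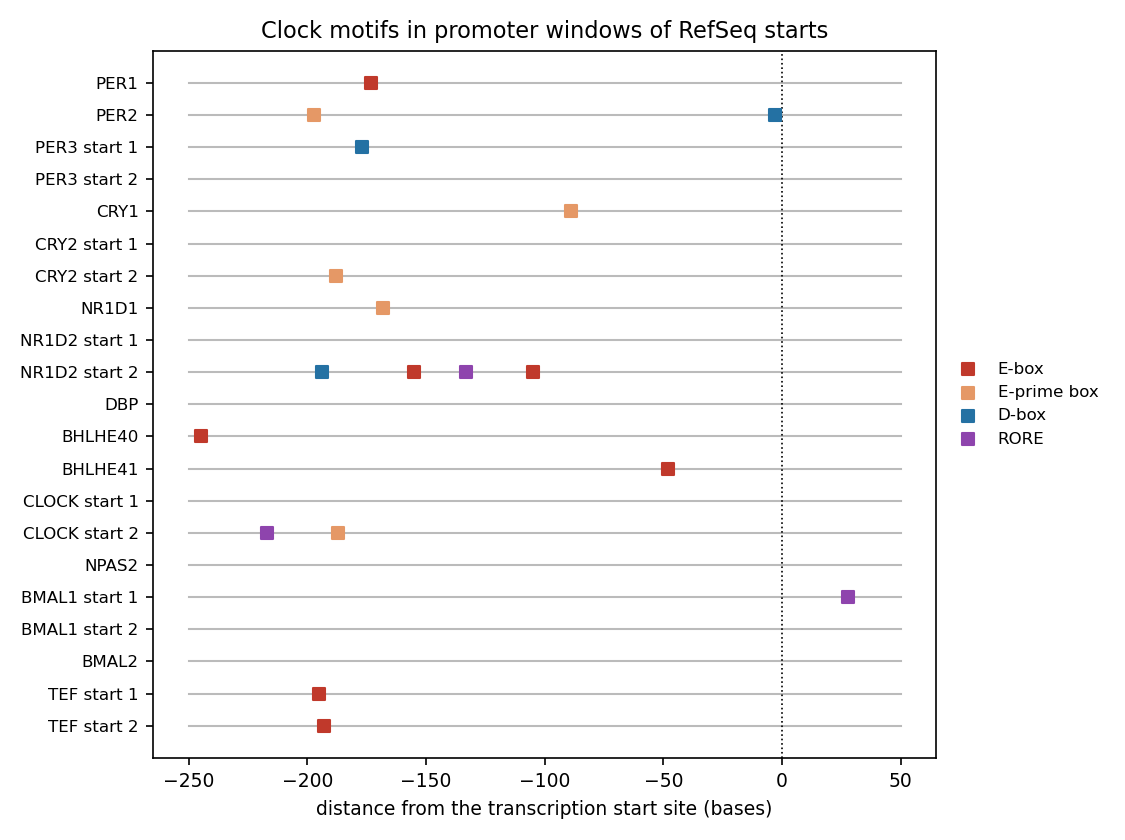
Positions of the motif matches (squares, coloured by motif) along promoter windows of the 10 clock genes and of CLOCK, NPAS2, BMAL1, BMAL2 and TEF. The horizontal axis is the distance in bases from the annotated start, and genes with more than 1 start have a row for each. D-box matches lie in PER2, PER3 and NR1D2.

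The period genes each took a different course. PER3 (Gene ID 8863, chromosome 1, 7784291 to 7845177), the member of the family least needed for rhythm in mice, had 15.7, 12.7 and 13.6 CPM in the shRRM2 libraries, against 24.7, 25.9 and 27.9 CPM in the shNC libraries. Every shRRM2 library was below every shNC library, and the log2 difference for PER3 was −0.90 (SE 0.0943, adjusted p = 7.71e-10). PER2 (Gene ID 8864, chromosome 2, 238244044 to 238300065), a core repressor, had 19.3, 17.6 and 16.7 CPM in shRRM2 and 14.1, 14.2 and 15.0 CPM in shNC. The groups did not overlap, but the rise was small, at 0.31 (SE 0.0987, adjusted p = 0.0092), and without shRRM2 replicate 1, the highest library, it was 0.25 and did not pass (adjusted p = 0.0634). PER1 (Gene ID 5187, chromosome 17, 8140472 to 8152404), the period gene that also answers acute signals such as glucocorticoids, had 84.5, 83.9 and 80.2 CPM in shRRM2 and 83.0, 81.9 and 79.0 CPM in shNC. The groups overlapped, and the difference was 0.03 with a 95% interval from −0.07 to 0.12 (adjusted p = 0.657).

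Of the cryptochromes, the partners of the period proteins in repression, CRY2 rose and CRY1 did not pass. CRY2 (Gene ID 1408, chromosome 11, 45847118 to 45883244) had 17.4, 19.0 and 20.1 CPM in shRRM2, all above the 15.0, 15.6 and 14.9 CPM in shNC. The rise was of 0.31 log2 units (SE 0.0959, adjusted p = 0.00662). CRY1 (Gene ID 1407, chromosome 12, 106991364 to 107093549), the stronger repressor of the pair, had 41.4, 40.3 and 39.9 CPM in shRRM2 and 38.6, 41.5 and 43.0 CPM in shNC. The groups overlapped, with a difference of −0.02 and a 95% interval from −0.15 to 0.11 (adjusted p = 0.838).

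Neither nuclear receptor passed the threshold. NR1D1 (REV-ERB alpha, Gene ID 9572, chromosome 17, 40092793 to 40100589) had 24.7, 23.5 and 22.98 CPM in shRRM2 and 21.3, 19.1 and 21.9 CPM in shNC. Its groups did not overlap, the log2 fold change was 0.20 (SE 0.0850) and the adjusted p of 0.0537 lay just above the threshold. It passed in 6 of the 13 alternative settings, where the adjusted p ran from 0.0217 to 0.262 over all 13. NR1D2 (REV-ERB beta, Gene ID 9975, chromosome 3, 23945286 to 23980617) had 34.7, 35.5 and 31.9 CPM in shRRM2 and 36.9, 34.8 and 37.6 CPM in shNC. These overlapped, with a log2 fold change of −0.10 (95% interval −0.24 to 0.04, adjusted p = 0.252).

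DBP (Gene ID 1628, chromosome 19, 48630030 to 48637379), an output factor whose RNA is strongly rhythmic in many mouse tissues, had 5.77, 6.997 and 6.08 CPM in shRRM2, against 11.9, 11.7 and 9.90 CPM in shNC. The groups were well apart, and the log2 difference for DBP was −0.83 (SE 0.135, adjusted p = 3.45e-06). BHLHE41 (DEC2, Gene ID 79365, chromosome 12, 26120030 to 26125037) had 58, 55 and 52 counts in shRRM2 and 21, 36 and 27 counts in shNC, or 3.28, 2.77 and 2.87 CPM against 1.20, 1.56 and 1.64 CPM. All shRRM2 libraries were higher, the fitted rise was 1.01 log2 units (SE 0.256, adjusted p = 0.00119), and the wide 95% interval, from 0.49 to 1.53, goes with the low counts. BHLHE40 (DEC1, Gene ID 8553, chromosome 3, 4979437 to 4985323), a repressor also induced by hypoxia, had 163, 158 and 163 CPM in shRRM2 and 185, 180 and 169 CPM in shNC. It fell by 0.14 (SE 0.0381, adjusted p = 0.00211), a small change with groups that did not overlap.

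**Figure D3:**
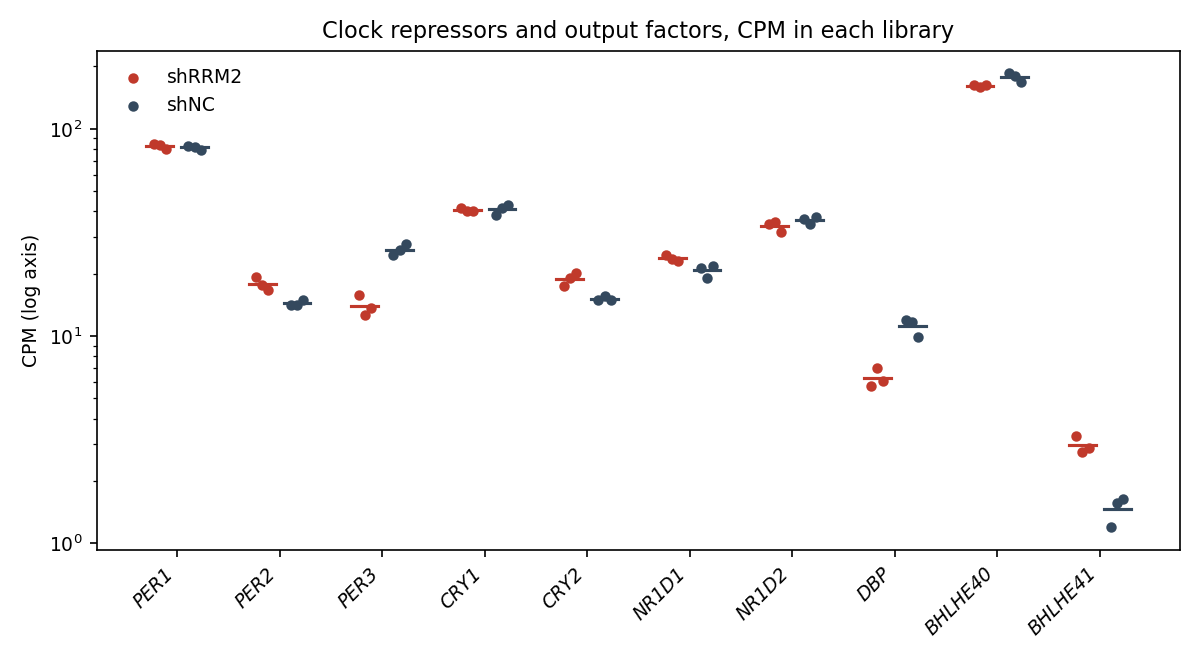
CPM in each library (points, logarithmic vertical axis) and group mean (line) for the 10 clock genes, shRRM2 left of shNC. The groups stand furthest apart for PER3, DBP and BHLHE41, and overlap for PER1, CRY1 and NR1D2.

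Library values were fully separated between the groups in 7 of the 10 genes, and in 57.8% of all tested genes. Several of these genes share exon bases with a gene on the other strand in GENCODE 29, and it is not given whether the counting used strand. DBP shares 661 bases with SPHK2, a sphingosine kinase, which rose by 0.55 (SE 0.0918, adjusted p = 5.59e-06) while DBP fell. NR1D1 shares 263 bases with the thyroid hormone receptor THRA, which fell by 0.27 (SE 0.0516, adjusted p = 4.39e-05). BHLHE41 shares 162 bases with SSPN and PER3 868 bases with UTS2, and these neighbours were almost silent, with 3 and 1 counts summed over the 6 libraries. PER3 also shares 482 exon bases with the antisense RNA Z98884.1, PER2 188 with AC012485.1 and CRY1 94 with AC078929.1, all on the other strand, and counts of these RNAs were not used here. On the same strand, PER1 shares 78 exon bases with MIR6883 and 30 with AC129492.3, which counting by strand would not separate. Their counts were not used here either. The part of shared reads in the values of DBP, NR1D1, PER1, PER3, PER2 and CRY1 was not tested.

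Set per length of the principal GENCODE transcript, BHLHE40 was the most abundant of the 10 in both groups, at 46.4 ± 0.708 CPM per kilobase in shRRM2 and 51.2 ± 2.43 in shNC (SD, n = 3 each). PER1 followed at 17.6 ± 0.490 and 17.3 ± 0.433, then CRY1 at 12.4 ± 0.237 and 12.6 ± 0.691 and NR1D1 at 8.55 ± 0.314 and 7.49 ± 0.522 CPM per kilobase in shRRM2 and shNC. BHLHE41 was the lowest, at 0.775 ± 0.0706 in shRRM2 and 0.382 ± 0.0612 in shNC. The order changed among the genes in between. In shRRM2, CRY2 at 4.48 ± 0.320 stood above DBP at 2.82 ± 0.287, PER2 at 2.80 ± 0.208 and PER3 at 2.26 ± 0.251 CPM per kilobase. In shNC, DBP at 5.02 ± 0.502 and PER3 at 4.22 ± 0.260 stood above CRY2 at 3.61 ± 0.0953 and PER2 at 2.26 ± 0.0774. Neighbours whose library ranges overlapped were DBP and PER2 in shRRM2, and in shNC NR1D1 with NR1D2 and DBP with PER3.

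Ratios of related genes within a library do not depend on how libraries are scaled, and 6 pairs were compared. The log2 ratio of PER3 to PER2 was −0.29, −0.47 and −0.29 in shRRM2, against 0.81, 0.87 and 0.89 in shNC. PER2 thus had more counts than PER3 in every shRRM2 library and fewer in every shNC library, a 2.31-fold shift. The ratio of BHLHE40 to BHLHE41 was 5.62, 5.83 and 5.81 in shRRM2 and 7.24, 6.83 and 6.66 in shNC, a difference of −1.16. Smaller differences were found for CRY1 to CRY2 (−0.33), PER1 to PER2 (−0.28) and NR1D1 to NR1D2 (0.29). In these 5 pairs the groups did not overlap, and the two-sided exact permutation test gave p = 0.1 for each, the smallest value that 3 libraries against 3 allow (adjusted p = 0.12 over the 6 pairs). The ratio of DBP to TEF was 0.48 ± 0.262 in shRRM2 and 0.47 ± 0.0826 in shNC (SD, n = 3 each; difference 0.00, exact permutation p = 1).

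**Figure D4:**
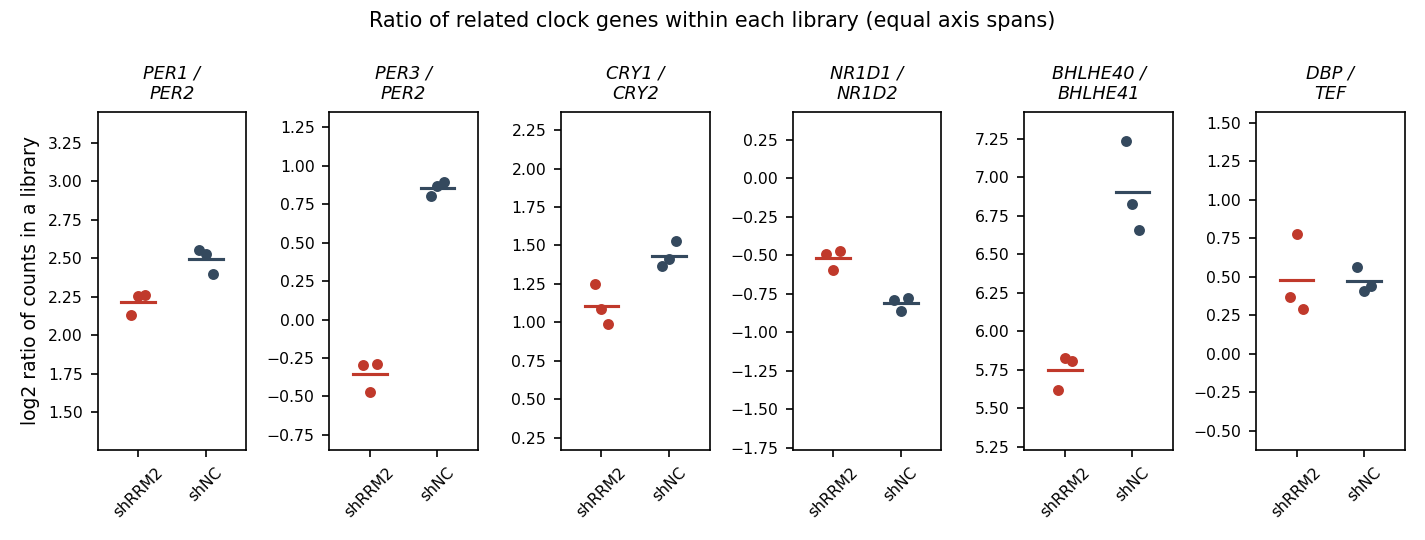
Log2 ratio of the counts of related clock genes in each library (points) with group means (lines), shRRM2 left of shNC, with axes of equal span. The PER3 to PER2 ratio lies below 0 in the shRRM2 libraries and above 0 in the shNC libraries, while the DBP to TEF ratios overlap.

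The 4 activators of the loop all passed the threshold, 2 higher and 2 lower, where 52.1% of all tested genes passed. CLOCK fell to 54.6% of the shNC level, with 15.6, 14.3 and 14.5 CPM in shRRM2 against 25.5, 26.2 and 29.5 CPM in shNC (log2 fold change −0.87, SE 0.0896, adjusted p = 4.95e-10). Its partner BMAL1 had 24.7, 26.8 and 27.3 CPM in shRRM2, all above the 19.4, 17.5 and 19.0 CPM in shNC, and rose by 0.50 (SE 0.0846, adjusted p = 6.66e-06). BMAL2, a relative of BMAL1, had 21.3, 22.6 and 18.01 CPM in shRRM2 and 13.7, 12.8 and 12.5 CPM in shNC (0.67, SE 0.102, adjusted p = 1.26e-06). NPAS2, which can replace CLOCK, fell by 0.15 (SE 0.0345, adjusted p = 0.000626) and was the most abundant activator, at 56.5 ± 1.58 CPM per kilobase in shRRM2 and 62.5 ± 1.71 in shNC, against 1.43 ± 0.0663 and 2.63 ± 0.206 for CLOCK (SD, n = 3 each). CLOCK and BMAL1, which work as 1 complex, moved in opposite directions at the RNA level.

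TEF, the D-box activator closest to DBP in role, had 4.47, 4.08 and 4.97 CPM in shRRM2 and 8.06, 8.81 and 7.29 CPM in shNC. It fell by 0.84 (SE 0.154, adjusted p = 2.17e-05), a size like that of DBP. The third factor of the family, HLF, had 0, 2 and 4 counts in shRRM2 and 0, 5 and 2 in shNC and was below the filter. NFIL3, the D-box repressor, had 20.2, 18.1 and 18.2 CPM in shRRM2 and 18.3, 15.6 and 15.2 CPM in shNC, which overlapped (0.20, 95% interval 0.00 to 0.40, adjusted p = 0.0832).

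RORA and RORB, receptors that oppose NR1D1 and NR1D2, were near the limit of detection. RORB had 15, 17 and 12 counts in shRRM2 and 7, 7 and 3 in shNC. Its rise of 1.39 (SE 0.501, adjusted p = 0.0200) did not pass in 6 of the alternatives, with an adjusted p of up to 0.0940 in DESeq2. RORA had 20, 15 and 11 counts in shRRM2 and 9, 10 and 23 in shNC (adjusted p = 0.822). Its groups overlapped.

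**Figure D5:**
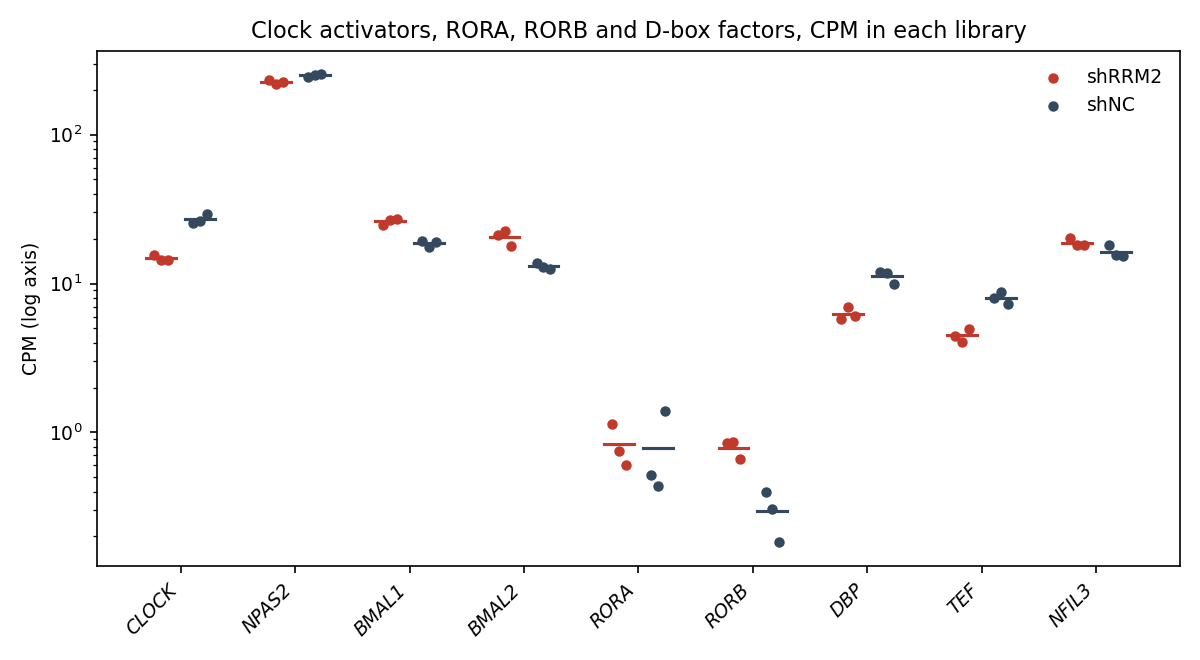
CPM in each library (points, logarithmic vertical axis) and group mean (line) for the activators, RORA, RORB, DBP, TEF and NFIL3, shRRM2 left of shNC. CLOCK, DBP and TEF are lower in every shRRM2 library, BMAL1 and BMAL2 are higher, and RORA and RORB lie at 1.40 CPM or less.

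Beyond these factors, 72 other clock genes were listed, the activators, RORs and D-box factors included. Of these 67 were tested, and 14 rose and 22 fell, or 53.7% against 52.1% of all tested genes, with a median of −0.03. Genes named from here to the end of the paragraph with a size under 0.50 were chosen after their values were seen. Of 14 kinases and phosphatases that set the stability and activity of clock proteins, CSNK1A1 rose by 0.14, while PPP1CB, CSNK2A1, PPP1CC and PPP5C fell by 0.38, 0.38, 0.24 and 0.18. CSNK1D and CSNK1E, the main kinases of the period proteins, had differences of 0.00 and −0.07 (adjusted p = 0.997 and 0.612). Of 8 tested ubiquitin ligases and deubiquitinases, USP2 rose by 0.39, and USP7, FBXW11 and HUWE1 fell by 0.42, 0.27 and 0.23. PPP5C did not pass without shRRM2 replicate 1 or 3 or shNC replicate 2 (adjusted p = 0.0503, 0.0942 and 0.0798), and USP2 did not without shRRM2 replicate 3 or shNC replicate 2 (adjusted p = 0.0560 and 0.0650). Of 18 cofactors, 3 rose and 7 fell, the largest falls being those of the coactivators PPARGC1B at −0.66 (SE 0.0786, adjusted p = 1.31e-08) and PPARGC1A at −0.52 (SE 0.180, adjusted p = 0.0218). The fall of PPARGC1A rested on shRRM2 replicate 2, without which it was −0.27 and did not pass (adjusted p = 0.122), and it also did not pass without shNC replicate 2 or 3 (−0.51 and −0.45, adjusted p = 0.0781 and 0.104). Of 18 clock-controlled outputs, 6 rose and 5 fell. The carboxylesterase CES2 rose by 0.52 (SE 0.0492, adjusted p = 7.57e-11), whereas MYC was lower at −0.80 (SE 0.0323, adjusted p = 3.55e-20). These outputs have many other regulators.

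The genes whose log2 CPM tracked the clock genes most closely over the 6 libraries were found for the 3 members with the smallest p. For PER3 they were SRR, HSF1 and UBE2K, for DBP ALG14, ATF4 and RPL26, and for BHLHE41 SH3D19, FBXL19 and IVNS1ABP, with Pearson's r of 0.997 to 0.999. With 2 groups of 3 libraries such values are common. Among 14500 other genes with a mean of 1 CPM or more, 1260 reached an r of 0.95 with PER3, 1050 with DBP and 788 with BHLHE41. CLOCK ranked 32 of 14500 for PER3, with an r of 0.993, but TEF ranked 1587 (r 0.938) and DBP 2703 (r 0.882). TEF ranked 1477 for DBP, with an r of 0.933, and CLOCK 2096 (r 0.906). With BHLHE41, r was −0.977 for DBP, −0.927 for TEF, −0.903 for CLOCK and −0.880 for PER3. These likenesses describe 6 libraries that share the group difference.

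Total counts ran from 16606947 to 23300433 per library, and RRM2 itself fell to 20.2% of its shNC level (adjusted p = 3.72e-29). Of 10 ductal and epithelial markers 8 were tested, with KRT7, KRT8 and KRT18 at 11206 counts or more in every library. KRT19, CFTR, EPCAM and CDH1 were low, with 22, 24, 53 and 182 counts in total. Of the 8 tested markers 6 rose and 1, KRT7, fell (adjusted p = 0.0442), where 26.0% of all tested genes rose and 26.1% fell. The list summed to 4217 to 4265 CPM in shRRM2 and 2946 to 3115 CPM in shNC. KRT8, KRT18 and MUC1 had means of 1636, 1072.5 and 841 CPM in shRRM2 against 1081, 787 and 467 CPM in shNC. Among the 6, EPCAM rose from 4, 3 and 7 counts in shNC and CDH1 from 16, 23 and 11. Of 3 mesenchymal markers 2 rose, with sums of 705 to 718 CPM in shRRM2 and 640 to 667 CPM in shNC. The 4 acinar and endocrine markers were at 0, and the fibroblast markers summed to at most 0.554 CPM in shRRM2 and 0.229 CPM in shNC. The endothelial list summed to 2.87 to 3.28 CPM in shRRM2 and 1.15 to 1.37 CPM in shNC, most of it CDH5, with KDR at 0. The immune list summed to 80.8 to 84.2 CPM in shRRM2 and 26.1 to 26.9 CPM in shNC, nearly all of it CD68, which is also a lysosomal gene, with CD3E at 0 and PTPRC at 5 counts in total. The part of these markers in the clock results was not tested.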

How the data were processed

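The 10 genes and the lists were chosen with earlier results of these data known. The authors deposited whole-number read counts per NCBI Gene ID. The tools named in the submitters' processing notes are fastp 0.23.4 and featureCounts, with the build hg38. Per the labels' protocols, polyadenylated RNA was taken and a directional kit used. For the aligner, the annotation release and the handling of strand and multiply mapped reads, the entry is: not given in the sources used here. The columns call the knockdown libraries si where the labels say sh, and were matched by gene name and number.

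Symbols and positions came from RefSeq GRCh38.p14 (40120 of 42902 IDs matched, and unmatched IDs held 1.25% of counts and stayed in), transcript lengths and overlaps from GENCODE 29. Genes were kept with filterByExpr at its defaults, scaled by TMM and tested with edgeR 4.0.16 in R 4.3.3 (robust quasi-likelihood, group alone, two-sided). SE is the size of the log2 fold change over the square root of F, and 95% intervals use the t distribution. Pair ratios used counts plus 0.5. The test was tried on simulated counts in which far fewer genes changed than passed here, so that trial does not cover data like these. Before TMM scaling, a library of these totals holds 16.6 to 23.3 counts at 1 CPM. Alternatives were RLE, library size alone, no filter, 1 CPM in 3 libraries, DESeq2 1.42.0, limma-voom (limma 3.58.1), a replicate block, each library left out, and a threshold of 0.01. The rule for named genes took all 10 genes and all activators, RORs and D-box factors, other list genes with a size of 0.5 or more past the threshold, RRM2, overlapping genes, and the 3 nearest profiles of 3 members. Some genes of the lists are not reported here by name, but the list counts include them. Libraries of 1 group differed by more than sampling noise (chi-square per degree of freedom of 2.23 to 3.87).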

Additional observations from a re-analysis of the deposited data

How the results depend on the processing

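The number of the 10 clock genes past the threshold was 6 with no filter, in DESeq2, with the replicate block and at an adjusted p of 0.01, and 7 with RLE factors, library size alone, 1 CPM in 3 libraries and limma-voom, where NR1D1 was added. It ran from 5 to 7 when 1 library was left out. The other clock genes past the threshold numbered 36 with all libraries and 32 to 37 with 1 left out, and all genes 8261 and 7490 to 7975. Over all genes, 8282 of 26730 passed with no filter, 7065 of 26730 in DESeq2 and 6672 of 15866 at 0.01. These shares were below the 52.1% of the main fit, but the 26730 are all genes with any count. In DESeq2 they include any gene left without an adjusted p, so that share is not one of tested genes alone. With RLE factors 8267 of 15866 passed, with library size alone 8236 of 15866 and in limma-voom 8276 of 15866. With 1 CPM in 3 libraries 8088 of 14642 passed. PER3, CRY2, DBP, BHLHE40, BHLHE41, CLOCK, NPAS2, BMAL1, BMAL2 and TEF passed in the same direction in all 13 alternatives. NFIL3 passed with library size alone (0.24, adjusted p = 0.0387) and without shNC replicate 1 (0.28, adjusted p = 0.0318). Differences that did not pass in any setting changed sign for CRY1 (0.0198 with library size alone, and −0.0623 to 0.0123 with 1 library left out, among them 0.00075 without shRRM2 replicate 3) and for RORA (−0.20 to 0.81 with 1 library left out). The DBP to TEF ratio ran from −0.15 to 0.10 when 1 library was left out, among them −0.03 and −0.01 without shNC replicates 2 and 3. The cause was not tested. With library size alone the median over all genes moved to 0.03.

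Same-numbered libraries did not deviate together from their group means (correlations of −0.0180, −0.0199 and −0.0187). No pairing by number was seen, but this check cannot exclude a pairing with little effect on the counts. With the replicate block 8244 genes, 36 other clock genes and 6 of the 10 passed. For the pair ratios, the mean difference of same-numbered libraries equals the difference of group means by arithmetic. Its values (−0.28, −1.21, −0.33, 0.29, −1.16 and 0.00435) are therefore those of the main comparison and are no check on it. Depth limits BHLHE41, RORA, RORB and HLF.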
